A study of Mus musculus with 2 samples.

Results

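Iron storage, import, export and release were followed through 8 genes in long-read RNA-seq of the mouse adrenal gland: the ferritin genes Ftl1 and Fth1, and Tfrc, Slc40a1, Ireb2, Aco1, Ncoa4 and Hmox1. They were chosen by name, and every transcript model assigned to one of these names was taken, with its exon structure. The set is 8 of 16674 genes with reads. It held 58 of 88152 transcript models in replicate 1 and 79 of 92074 in replicate 2. All 8 genes had reads in both libraries. The samples were 2 biological replicates of adrenal gland from C57BL/6J mice, a wild-type inbred strain, in a single untreated group. They came from different biosamples. A description names females while the sex field was left uncollected, the age is given as unknown, and the number of animals per biosample is not given in the sources used here. With a single group there was no contrast between conditions. Every comparison below sets one library against the other, and its p-values measure differences between reads of these libraries.

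Iron that is not in use is held inside ferritin, a hollow shell built of heavy and light subunits. The heavy subunit oxidises iron and the light subunit favours its storage. Cells take up transferrin-bound iron through the transferrin receptor, export iron through ferroportin, and retrieve stored iron when NCOA4 carries ferritin to the lysosome. Iron regulatory proteins bind hairpins in messenger RNA, the iron-responsive elements, when iron is scarce. A hairpin near the 5′ end lets them block translation, and hairpins in the 3′ untranslated region (UTR) let them protect the message from decay. The adrenal cortex needs iron for the heme of its steroid-making cytochromes and for the iron-sulfur cluster of adrenodoxin.

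Replicate 1 held 810239 reads and replicate 2 held 587861, so a floor of 3 reads, all that an observed 0 leaves room for, equals 3.70 and 5.10 CPM (reads scaled to a common library total). The median read on an annotated model came from a message of 1648 nt in replicate 1 and of 3052 nt in replicate 2. The libraries thus differed in the length of the messages they held. Markers of both adrenal compartments were present. All 6 markers of the cortex (62649 and 53461 reads in replicates 1 and 2) and all 6 of chromaffin cells (5027 and 4996 reads) were detected. Liver markers summed to 2 and 0 reads, with Alb, the albumin gene, at 0 in both libraries.

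The messages that carry iron-responsive elements were searched first, because these hairpins set the members apart by how they are controlled. The motif was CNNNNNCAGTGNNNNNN on the sense strand, in which the 5 bases after the leading C must pair with the last 5 bases, G:T pairs included. It was sought in the GENCODE M21 sequence (mm10) of the most used spliced annotated model of each gene. In the sequences below, capitals mark the bulged C and the 6 loop bases.
Ftl1, exon 1, 5′ UTR, minus strand, chr7:45459779-45459808: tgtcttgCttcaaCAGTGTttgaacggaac
Fth1, exon 1, 5′ UTR, plus strand, chr19:9982731-9982760: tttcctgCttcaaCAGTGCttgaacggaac
Slc40a1, exon 1, 5′ UTR, minus strand, chr1:45925465-45925494: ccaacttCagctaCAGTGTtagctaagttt
Tfrc, exon 19, 3′ UTR, plus strand, chr16:32631218-32631247: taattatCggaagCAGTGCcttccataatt
Tfrc, exon 19, 3′ UTR, plus strand, chr16:32631597-32631626: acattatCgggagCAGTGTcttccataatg
Tfrc, exon 19, 3′ UTR, plus strand, chr16:32631662-32631691: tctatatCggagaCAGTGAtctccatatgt
Tfrc, exon 19, 3′ UTR, plus strand, chr16:32631709-32631738: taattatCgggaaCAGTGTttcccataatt

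The ferritin windows were identical at 27 of 30 positions. Counted from 1 at the 5′ end of the window, with the Ftl1 base first, they differed by G2T, T5C and T19C, all outside the 5 paired bases on either side of the loop. Ireb2, Aco1, Ncoa4 and Hmox1 held no match. In the background, 56 of 58447 protein-coding transcripts of at least 250 nt (0.0958%) had a match in their first 250 bases. Of 10151 transcripts of at least 4000 nt, only Tfrc-201 itself, 1 transcript, had as many as 4 matches. A match is a description of the sequence, and the absence of one says only that these letters were not found.

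Nearly every ferritin read belonged to a model that includes the hairpin. For Ftl1 these were 11891 of 11931 reads (99.7%) in replicate 1 and 371 of 373 (99.5%) in replicate 2. For Fth1 the shares were 99.8% in each library, and for Slc40a1 25 of 26 and 63 of 65 reads. Models that reach the hairpins of Tfrc held 1 of its 4 reads in replicate 1 and 7 of 8 in replicate 2. The ends are those of the model as annotated, so a read may stop short of the hairpin.

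The ferritins were the most abundant members in each library (the plot of levels by gene). Ftl1, which encodes the light subunit (ENSMUSG00000050708.16, chr7:45457944-45459884, minus strand), had 11931 reads or 14725 CPM in replicate 1. It had 373 reads or 635 CPM in replicate 2, a mean of 7680 ± 9964 CPM (SD, n = 2). Fth1, which encodes the heavy subunit (ENSMUSG00000024661.7, chr19:9980598-9985098, plus strand), had 7794 reads or 9619 CPM in replicate 1. It had 420 reads or 714 CPM in replicate 2, a mean of 5167 ± 6297 CPM (SD, n = 2). Both stood far higher in replicate 1, where Ftl1 was the gene of rank 2 and Fth1 of rank 8. In replicate 2 the ranks were 185 and 153.

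**Figure D1:**
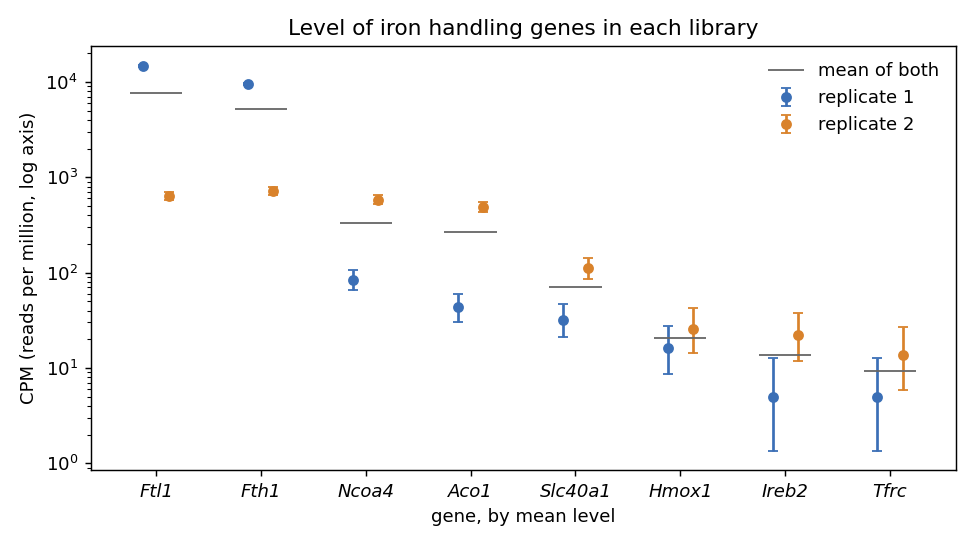
Level of each gene in CPM on a log axis, in replicate 1 (blue) and replicate 2 (orange), with 95% Clopper-Pearson intervals of the share of reads and the mean of both libraries as a line. Ftl1 and Fth1 lie at 14725 and 9619 CPM in replicate 1 and at 635 and 714 CPM in replicate 2, while Ncoa4, Aco1 and Slc40a1 are higher in replicate 2.

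The genes that release ferritin iron and sense it followed. Ncoa4, the cargo receptor for ferritin (ENSMUSG00000056234.15, chr14:32159865-32179855, plus strand), had 68 reads or 83.9 CPM in replicate 1. In replicate 2 it had 341 reads or 580 CPM, a mean of 332 ± 351 CPM (SD, n = 2). Aco1, which encodes cytosolic aconitase and, without its iron-sulfur cluster, an iron regulatory protein (ENSMUSG00000028405.9, chr4:40143081-40198338, plus strand), had 35 reads or 43.2 CPM in replicate 1. In replicate 2 it had 286 reads or 487 CPM, a mean of 265 ± 313 CPM (SD, n = 2). Both were higher in replicate 2, the opposite of the ferritins. Ireb2, the gene of the other iron regulatory protein (ENSMUSG00000032293.8, chr9:54863789-54912530, plus strand), was scarce, with 4 reads or 4.94 CPM in replicate 1 and 13 reads or 22.1 CPM in replicate 2. Its mean was 13.5 ± 12.1 CPM (SD, n = 2).

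Of the transport genes, the exporter was the more abundant. Slc40a1, the gene of ferroportin (ENSMUSG00000025993.10, chr1:45908068-45926523, minus strand), had 26 reads or 32.1 CPM in replicate 1. In replicate 2 it had 65 reads or 111 CPM, a mean of 71.3 ± 55.5 CPM (SD, n = 2). Tfrc, the gene of the transferrin receptor (ENSMUSG00000022797.16, chr16:32608920-32632794, plus strand), had 4 reads or 4.94 CPM and 8 reads or 13.6 CPM, a mean of 9.27 ± 6.13 CPM (SD, n = 2). Both genes were higher in replicate 2 in CPM, but the Tfrc counts were close to the floor of 3 reads. Hmox1, the inducible heme oxygenase that frees iron from heme (ENSMUSG00000005413.8, chr8:75093621-75100589, plus strand), had 13 reads or 16.0 CPM in replicate 1 and 15 reads or 25.5 CPM in replicate 2. Its mean of 20.8 ± 6.70 CPM (SD, n = 2) had the smallest spread, relative to the mean, of the 8 genes.

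By mean level the order was Ftl1, Fth1, Ncoa4, Aco1, Slc40a1, Hmox1, Ireb2 and Tfrc. No neighbours in this order differed by more than the larger of their SDs. Within replicate 1 the intervals of Ftl1, Fth1, Ncoa4 and Aco1 were separate, and within replicate 2 those of Ftl1 overlapped with those of Fth1 and of Ncoa4, as did those of Ncoa4 and Aco1. The order of mean CPM per kilobase of the most used annotated model was the same, from 7934 for Ftl1 and 5562 for Fth1 to 2.34 for Ireb2 and 1.90 for Tfrc. On that scale Ncoa4 was at 81.7, Aco1 at 69.1, Slc40a1 at 21.2 and Hmox1 at 13.2. Reads were counted once whatever the length of their model, so dividing by length raises short messages such as the ferritins. The scale does not correct for the difference in message length between the libraries.

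The balance of the ferritin messages was given by the ratio of their reads, and the subunit proteins were not measured. Ftl1-201 has 968 nt and Fth1-201 has 929 nt. Replicate 1 had 1.53 reads of Ftl1 for each read of Fth1 (95% interval 1.49 to 1.58), and replicate 2 had 0.888 (0.770 to 1.02). The intervals did not overlap. With annotated models alone the ratios were 1.54 and 0.935. Genes counted as ferritin copies by the start of their names added little. Of 14 annotated, Ftl1-ps1 had 40 and 12 reads and Ftl2-ps 1 and 0. With their reads added the ratios were 1.54 and 0.917. How reads were divided between Ftl1 and these copies is not given in the sources used here.

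Other pairs of members were set side by side within each library. Reads of Aco1 exceeded those of Ireb2 by 8.75 times (3.13 to 33.9) in replicate 1 and 22.0 times (12.7 to 41.8) in replicate 2. Slc40a1 exceeded Tfrc by 6.50 times (2.26 to 25.6) and 8.13 times (3.89 to 19.6). Ncoa4 exceeded Aco1 by 1.94 times (1.27 to 3.01) and 1.19 times (1.02 to 1.40). Differences of these ratios between the libraries were not tested, and the intervals cover counting error only. The messages differ in length, as the libraries do: Aco1-201 has 3832 nt and Ireb2-201 5770 nt, Slc40a1-201 3370 nt and Tfrc-201 4890 nt. In replicate 1 all 4 reads of Ireb2 were of single-exon models.

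The genes nearest to the ferritins in level over both libraries were the ferritins themselves, with a Euclidean distance of 0.638 in log2(CPM + 1) over 2 libraries. Akr1cl, of the aldo-keto reductase family, came next for Ftl1 at 1.33 and for Fth1 at 0.748, and Adh1, an alcohol dehydrogenase, followed at 1.68 and 1.40. For Tfrc no neighbour could be singled out, since 26 genes had the same 4 and 8 reads.

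The libraries were then compared gene by gene, with the exact two-sided binomial test on TMM-scaled library sizes and Benjamini-Hochberg adjustment over the 9809 genes that reached 10 reads in sum. The background was high: 66.2% of genes were called at an adjusted p under 0.05, 35.6% higher in replicate 1 and 30.6% higher in replicate 2. Of the 8 members, replicate 1 was higher for 2 and replicate 2 for 3, and 3 were not called. That share is near the background. The folds that follow use the TMM-scaled sizes, so they differ from the ratios of the CPM values given above. Ftl1 was 32.3-fold higher in replicate 1 (95% interval 29.1 to 35.9) and Fth1 18.7-fold higher (17.0 to 20.7). Aco1 was 8.10-fold higher in replicate 2 (5.69 to 11.9, exact binomial test, adjusted p = 1.97e-48). Ncoa4 was 4.97-fold higher there (3.82 to 6.55, adjusted p = 3.12e-43) and Slc40a1 2.48-fold higher (1.55 to 4.07, adjusted p = 1.25e-04).

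Ireb2, Tfrc and Hmox1 were not called. The log2 ratio of replicate 2 over replicate 1 was 1.57 for Ireb2 (exact binomial test, adjusted p = 0.0711), 0.90 for Tfrc (adjusted p = 0.450) and 0.19 for Hmox1 (adjusted p = 0.883). Their fold intervals, replicate 2 over replicate 1, ran from 0.995 to 13.6 for Ireb2, from 0.531 to 8.99 for Tfrc and from 0.508 to 2.61 for Hmox1. With total counts in place of TMM scaling, Ireb2 was called higher in replicate 2 (log2 ratio 2.00, adjusted p = 0.0101). That scaling moved the median log2 ratio of all genes from -0.01 to 0.42.

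The ratio followed message length across genes (the plot of ratio against length). The ferritin messages are the shortest of the 8. Ncoa4-202 has 4065 nt, Aco1-201 3832 nt, Slc40a1-201 3370 nt, Tfrc-201 4890 nt and Ireb2-201 5770 nt. Hmox1-201, with 1569 nt, lay above genes of its length.

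**Figure D2:**
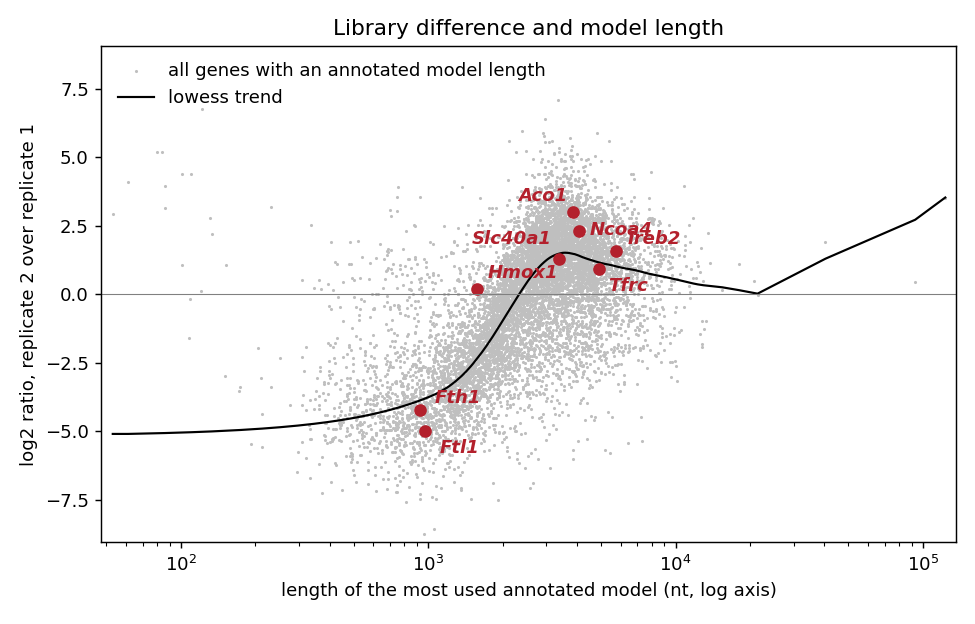
Log2 ratio of replicate 2 over replicate 1 against model length (most used annotated model, log axis) for 9173 genes (grey), with the lowess trend (line) and the 8 members (red). Ftl1 and Fth1 lie at -5.01 and -4.23 among other short messages, below the trend, and Hmox1 lies at 0.19, above it.

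When the share expected for each gene was set from the lowess trend on length, 42.3% of 9173 genes were called, 20.7% higher in replicate 1 and 21.6% higher in replicate 2. The ferritin differences shrank to log2 values of -1.19 for Ftl1 (exact binomial test, adjusted p = 7.25e-71) and -0.35 for Fth1 (adjusted p = 3.80e-06). Aco1 kept 1.52 (adjusted p = 1.41e-10) and Ncoa4 0.90 (adjusted p = 3.01e-06), both higher in replicate 2. Slc40a1 was at -0.18 (adjusted p = 0.763), with its direction turned and its call lost. Hmox1 came to be called higher in replicate 2, at 2.56 (adjusted p = 3.32e-05), while Tfrc (-0.25) and Ireb2 (0.56) were not called. In these terms replicate 1 was the higher library for 2 members and replicate 2 for 3.

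Macrophages, which are rich in ferritin, and red cell precursors also express several of these genes. Of the 10 macrophage markers 9 had reads, summing to 1388 CPM in replicate 1 and 311 CPM in replicate 2, with Spic, a factor of iron-recycling macrophages, at 0 in both. Lyz2 alone gave 896 and 100 CPM of these sums. Of the 8 macrophage markers tested, 5 were higher in replicate 1 and 2, Csf1r (19.7 and 81.7 CPM) and Adgre1 (17.3 and 62.9 CPM), in replicate 2. Over all genes tested, 35.6% were higher in replicate 1 and 30.6% in replicate 2, or 20.7% and 21.6% with the length trend removed. Of the 7 erythroid markers 5 had reads, summing to 1825 and 225 CPM, with Slc4a1, the anion exchanger of red cells, at 0 in both. With the length trend removed, 2 of 8 tested macrophage markers were higher in replicate 1 (median log2 ratio -0.10, beside 0.09 over all genes). No erythroid marker was higher in replicate 1, while 3 of 5 were higher in replicate 2. Their part in the ferritin difference was not tested. In bulk tissue, fewer cells of a type and less RNA per cell cannot be told apart.

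The structures of the messages were read from the models (the plot of model classes). Ferritin messages were almost uniform. Annotated models took 99.7% of the Ftl1 reads in replicate 1 and 99.5% in replicate 2, and 99.1% and 94.5% of the Fth1 reads. Over all genes with at least 10 reads the median was 76.5% and 73.3%. The 4-exon model Ftl1-201 alone held 99.3% and 98.9%. Ftl1-205 and Ftl1-206, annotated as retained intron transcripts, had 23 and 16 reads in replicate 1 and 1 read each in replicate 2.

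**Figure D3:**
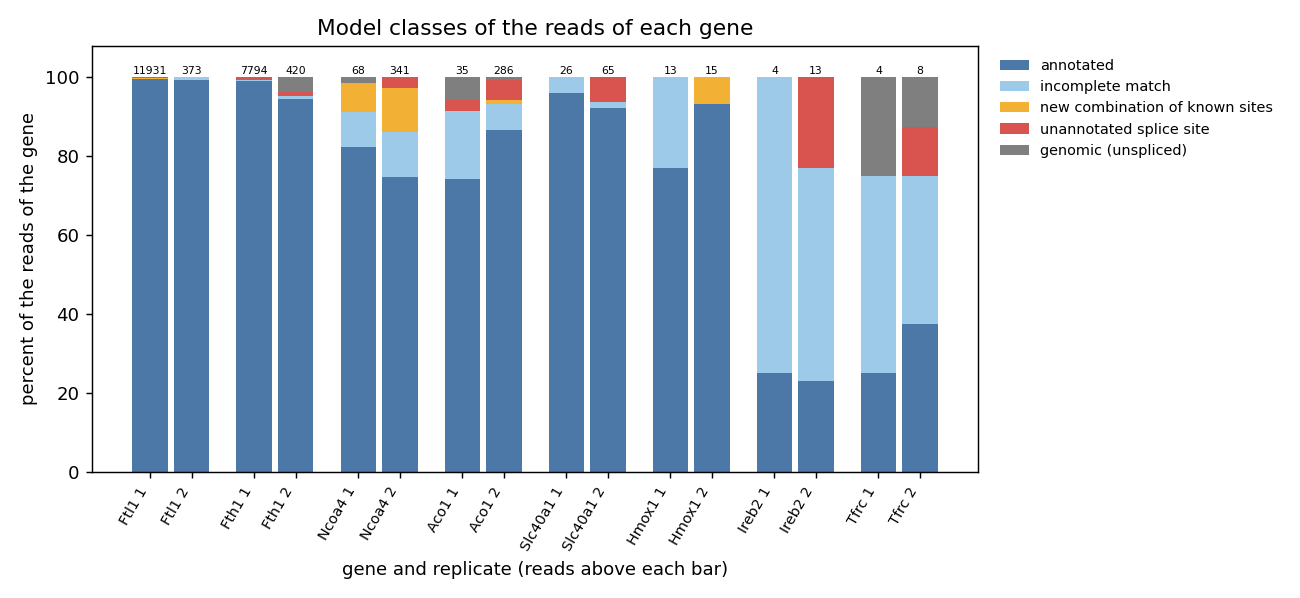
Percent of the reads of each gene in 5 model classes, in replicates 1 and 2 side by side, with the reads of the gene above each bar. Both ferritins are above 94% annotated, while Ireb2 and Tfrc, with 13 reads or fewer per library, are mostly incomplete or unannotated.

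Fth1 was the only one of the 6 members tested whose use of its main model was called different between the libraries. Fth1-201, with 4 exons, held 98.9% of reads in replicate 1 (95% interval 98.7 to 99.2) and 94.0% in replicate 2 (91.3 to 96.1). The difference was -4.89 percentage points (Fisher's exact test, Benjamini-Hochberg adjusted p = 3.02e-09), and 28.7% of the 4733 genes tested were called. Intron-holding models were the larger part of the other reads in replicate 2. There, 20 of 420 reads (4.76%, 2.93 to 7.26) held at least 1 intron of Fth1, and 15 of them were a single unspliced model of 2389 nt. In replicate 1 there were 26 of 7794 (0.334%, 0.218 to 0.488), of which 15 were Fth1-208, annotated with a retained intron, and no unspliced read was seen. Across the 4548 genes that had 10 reads or more in both libraries, the median share of such reads was 0% and 1.52%, and the share of all their reads pooled was 1.95% and 4.43%, close to that of Fth1 in replicate 2. With models of several exons alone, the Fth1 difference was -1.40 points and was not called (adjusted p = 0.109).

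Small shifts of splice sites recurred among the other ferritin reads. The donor of Fth1 exon 2 was used 4 bases downstream in 46 of 7782 reads (0.591%, 0.433 to 0.788) in replicate 1 and in 5 of 401 (1.25%, 0.406 to 2.89) in replicate 2. The same shift of 4 bases was found at exon 1 in 5 reads and at exon 3 in 3 reads of replicate 1. None was seen in replicate 2, where a count of 0 allows up to 0.748% and 0.741%. The sequences are shown because the shift is the same at all 3 donors. They span the exon end, on the plus strand, and capitals mark the 4 intron bases that the shifted donor adds.
Fth1 exon 1 donor, chr19:9982969-9982998: gtctatctgtctatgGTGAgtgcggcctcc
Fth1 exon 2 donor, chr19:9984313-9984342: ctgcaggatataaagGTAAgtagatcctag
Fth1 exon 3 donor, chr19:9984671-9984700: aagaatgatccccacGTGAgtatcggaaac

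At each of these donors the 4 added bases are followed by gt, as the printed sequences show. That describes the sequence only, and whether these reads show real use of the shifted donors was not tested. Ftl1 had the shift of 4 bases at its exon 3 donor in 9 reads of replicate 1. The acceptor of Ftl1 exon 3 was used 3 bases downstream in 11 reads of replicate 1 (0.0924%, 0.0462 to 0.165). A further 4 reads used the acceptor 21 bases upstream, that of Ftl1-202, annotated as a target of nonsense-mediated decay. None of these Ftl1 sites was seen in replicate 2, with 371 or 372 reads over each junction, which allows up to 0.809% and 0.806%. In the acceptor window below, on the minus strand, capitals mark the 3 exon bases left out by the downstream site.
Ftl1 exon 3 acceptor, chr7:45458646-45458675: tattcttgtgtgcagAAGccatctcaagat

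Ncoa4 used several annotated alternatives. Ncoa4-202, with 10 exons, held 79.4% of reads in replicate 1 and 68.0% in replicate 2 (difference -11.4 points, Fisher's exact test, adjusted p = 0.190). An acceptor of exon 7 placed 3 bases downstream, which GENCODE lists in other Ncoa4 transcripts, joined exon 6 in 4 of 63 reads (6.35%, 1.76 to 15.5) and in 36 of 330 (10.9%, 7.76 to 14.8). With the rest of Ncoa4-202 unchanged it formed an unannotated combination of 4 and 30 reads. The window below joins the end of exon 6 to the start of exon 7, and capitals mark the 3 bases that the downstream acceptor omits.
Ncoa4 exons 6 and 7 joined, chr14:32173476-32174404: caggtgccagagcagAAGtcagcatccagt

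Ncoa4-201 begins at a downstream exon 1, and that start was used in 2 of 62 reads with either start (3.23%, 0.393 to 11.2) in replicate 1 and in 25 of 298 (8.39%, 5.50 to 12.1) in replicate 2. The intervals overlapped. Ncoa4-201 itself had 2 and 22 reads. A model of 9 exons that lacks any exon 1 had 2 and 22 reads as well, so the start of those reads is not known.

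Aco1 reads were long and mostly complete. Aco1-201, with 21 exons, held 74.3% of reads in replicate 1 and 86.7% in replicate 2 (Fisher's exact test, adjusted p = 0.174). Junction 1 was in the models of 26 reads and the last junction in those of 32 in replicate 1, against 254 and 282 in replicate 2. An unannotated exon 1 at chr4:40155122, between exons 1 and 2 of Aco1-201, opened a model of 21 exons with 5 reads in replicate 2. No read of replicate 1 had it. The donor of Aco1 exon 1 was also used 4 bases downstream, in 3 reads of replicate 2, the same shift as in the ferritins. It was not limited to these genes. Slc40a1 exon 1, Ireb2 exon 7 and Ncoa4 exons 7 and 9 each had 1 such read in replicate 2.

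Ireb2 and Tfrc were read in pieces (the plot of reads by junction). Ireb2-201, with 22 exons, was found whole in 3 of 13 reads of replicate 2. In replicate 1 no read of Ireb2 was spliced: 3 lay in a 2900 nt piece of its last exon and 1 was the single-exon Ireb2-202. Tfrc-201, with 19 exons, was whole in 3 of 8 reads of replicate 2 and in none of 4 in replicate 1, where no read crossed a junction beyond intron 12. Of those 4 reads 1 was Tfrc-202, a shorter annotated model of 13 exons.

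**Figure D4:**
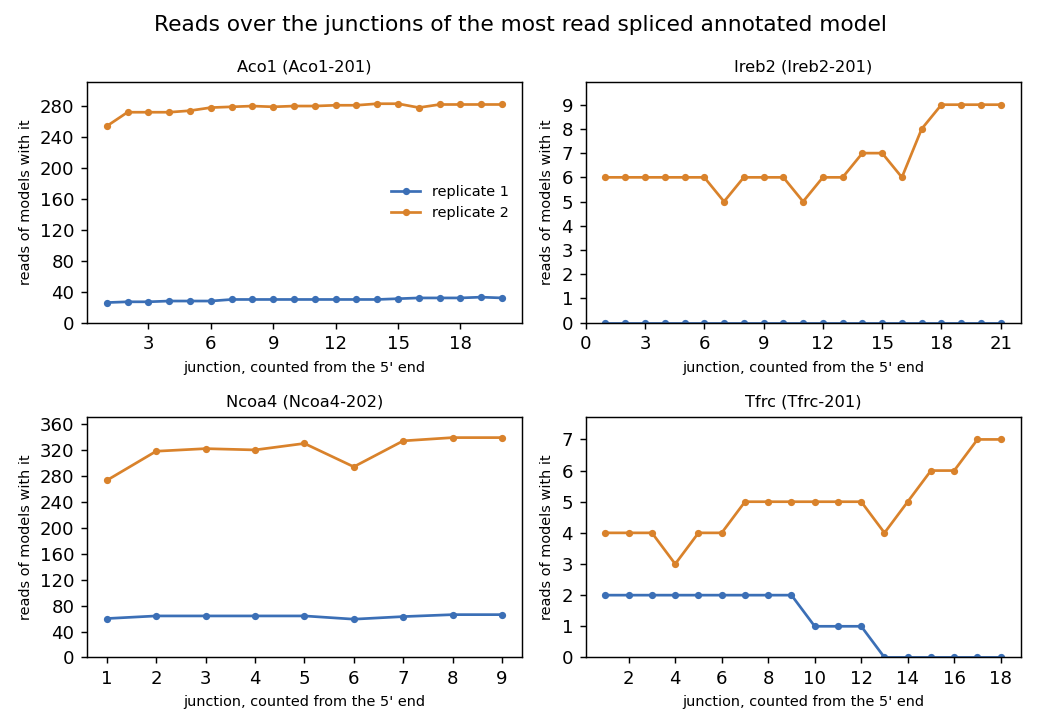
Reads whose model holds each junction of Aco1-201, Ireb2-201, Ncoa4-202 and Tfrc-201, counted from the 5′ end, in replicate 1 (blue) and replicate 2 (orange). Aco1 runs from 254 reads at the first to 282 at the last junction in replicate 2, and Ireb2 has no spliced read in replicate 1.

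Slc40a1 was read almost entirely as one form. Slc40a1-201, with 8 exons and the 5′ hairpin in exon 1, held 25 of 26 reads in replicate 1 and 60 of 65 in replicate 2. GENCODE lists 8 models of this gene, and no other annotated one had a read. Hmox1-201, with 5 exons, held 10 of 13 and 14 of 15 reads. Its other 3 reads in replicate 1 were of incomplete models that lack the 5′ end.

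Other genes of iron handling, in lists chosen by pathway, are described by counts beside those of all genes tested. Over all genes the median log2 ratio was -0.01, with 35.6% called higher in replicate 1 and 30.6% in replicate 2. With the length trend removed, the median was 0.09, with 20.7% called higher in replicate 1 and 21.6% in replicate 2. These values serve for each list below. Of 12 genes of transferrin iron uptake 9 were tested: 2 were higher in replicate 2, 1 was higher in replicate 1 and 6 were not called (median 0.38). With the length trend removed, 3 of the 9 were higher in replicate 1 and none in replicate 2 (median -0.59). Trf, the gene of transferrin itself, had 269 CPM in replicate 1 and 340 CPM in replicate 2 and was not called, but was higher in replicate 1 with the length trend removed (log2 ratio -0.71, exact binomial test, adjusted p = 4.02e-06). Slc11a2, an importer of ferrous iron, had 54.3 and 98.7 CPM and was likewise called higher in replicate 1 only with that trend removed (-0.88, adjusted p = 0.00926). Steap1, of the metalloreductase family, had 142 and 10.2 CPM and was higher in replicate 1 (log2 ratio -4.16, exact binomial test, adjusted p = 1.02e-26). Its log2 ratio was -0.84 with the length trend removed, and the call was lost (adjusted p = 0.260).

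Control and delivery genes split in both directions, as did all genes tested (35.6% higher in replicate 1 and 30.6% in replicate 2). Of the 13 genes of intracellular iron delivery and of the control of iron regulatory proteins, 12 were tested, with 2 higher in replicate 2, 5 higher in replicate 1 and 5 not called (median -0.98). Fbxl5, the iron-sensing receptor of the ubiquitin ligase that degrades iron regulatory proteins, had 51.8 CPM in replicate 1 and 373 CPM in replicate 2. Its scaffold Cul1 had 93.8 and 429 CPM, and Skp1a, the adaptor, 1021 and 109 CPM. These 3 were called, Fbxl5 and Cul1 higher in replicate 2 and Skp1a in replicate 1. Cul1 went from a log2 ratio of 1.71 to 0.34 with the length trend removed and lost its call (exact binomial test, adjusted p = 0.142), and 2 of 11 genes of the list were higher in replicate 2 and 5 in replicate 1 (median -0.92). Of the 10 genes of systemic iron control and export only 2 could be tested, Cp (25.9 and 85.1 CPM), the ferroxidase ceruloplasmin, and Bmp2 (14.8 and 62.9 CPM). Both were higher in replicate 2 (median 1.40). Neither was called with the length trend removed, with log2 ratios of -0.17 for Cp and 0.06 for Bmp2. Heph, a ferroxidase, had 2 and 7 reads. Hamp, the gene of hepcidin, had no read, which allows up to 3.70 and 5.10 CPM.

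Genes that build iron-sulfur clusters and supply mitochondrial iron are read beside the 35.6% of all tested genes that were higher in replicate 1. Of 20 genes of mitochondrial iron and cluster assembly 18 were tested, and 10 had more in replicate 1, 4 had more in replicate 2 and 4 were not called (median -1.97). Iscu, the scaffold for cluster assembly, had 1820 CPM in replicate 1 and 126 CPM in replicate 2. Adrenodoxin, encoded by Fdx1, had 828 and 269 CPM, and Fdxr, its reductase, 933 and 1664 CPM. With the length trend removed, replicate 2 was higher for 4 of the 18 and replicate 1 for 6, with Fdx1 now higher in replicate 2 (log2 ratio 1.87, exact binomial test, adjusted p = 1.69e-35). Iscu stayed higher in replicate 1, but its log2 ratio went from -4.32 to -0.49 (exact binomial test, adjusted p = 0.00887).

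Of 19 genes of heme synthesis and breakdown 15 were tested, and 10 had more in replicate 1, 3 had more in replicate 2 and 2 were not called (median -1.90). Over all genes tested, 35.6% were called higher in replicate 1 and 30.6% in replicate 2. Alas1, which opens heme synthesis, had 596 and 970 CPM, and Fech, which inserts the iron, 168 and 373 CPM. Both were higher in replicate 2, while the heme transporter Slc48a1, at 468 and 255 CPM, was higher in replicate 1. With the length trend removed, replicate 2 was higher for 2 of the 15 and replicate 1 for 5, and Alas1 was higher in replicate 1 (log2 ratio -1.26, exact binomial test, adjusted p = 4.03e-41). Fech went from a log2 ratio of 0.67 to -0.23 and lost its call (exact binomial test, adjusted p = 0.252).

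Among 13 redox regulators that act with Hmox1 and the ferritins, 10 were tested, with 4 higher in replicate 2, 3 higher in replicate 1 and 3 not called (median 0.08). These counts stand beside 30.6% of all genes tested higher in replicate 2 and 35.6% higher in replicate 1. Txnrd1, a thioredoxin reductase, had 60.5 and 600.5 CPM. Gpx4, which removes lipid peroxides, had 528 and 37.4 CPM, and Srxn1, sulfiredoxin, had 264 and 156 CPM. Txnrd1 was higher in replicate 2 and the other two in replicate 1. Gpx4 went from a log2 ratio of -4.26 to -0.43 with the length trend removed and lost its call (exact binomial test, adjusted p = 0.263), and the list had 4 genes higher in each library (median -0.80).

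Other messages known to carry an iron-responsive element were searched with the same motif. Alas2, the erythroid enzyme that opens heme synthesis, had 1 match, in its 5′ UTR, and 4 and 9 reads. Epas1, the gene of a hypoxia-inducible factor, had 27.2 and 40.8 CPM and was not called. Epas1, Slc11a2 and Cdc14a had no match in the model searched, and Cdc42bpa had no annotated model with reads to search.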

How the data were processed

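Adrenal gland RNA of 2 biological replicates in 1 group was measured by long-read RNA-seq. For each library the authors deposited the number of reads (raw counts) of every transcript model, built with TALON, per the file headers. The build was mm10 and the annotation GENCODE M21, per the sample notes. The sources used here do not state aligner, platform and versions. Exon numbers and model lengths are likewise as deposited by the authors. Counts were summed by gene (Python 3.11.15, pandas 2.3.3, scipy 1.17.1). CPM used all reads of a library. Intervals are 95% Clopper-Pearson and, like floors of 3 reads, cover counting error only, since amplified reads are not independent molecules.

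Replicates were compared by exact binomial tests with TMM sizes (edgeR 4.0.16), genes with at least 10 reads over both, Benjamini-Hochberg at 0.05, and a pseudocount of 0.5 reads in log2 ratios. The lowess span on length was 0.3 (statsmodels 0.14.6), fitted on genes with at least 20 reads. Isoforms used Fisher's exact test with at least 10 reads in each library. Spliced models were matched by junction chain. The binomial test was tried on simulated counts with some genes changed 4-fold. It recovered 91% of the changed genes and called 0.118% of the others, or 90.9% and 0.103% with a length trend added and removed. The simulated libraries differed otherwise by counting error only, so the result does not show how the test behaves on these libraries. No contrast between groups was possible. Alternatives covered scaling, filters, pseudocount, length, model classes and each replicate left out.

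Named were all 8 members, their most used models and those with at least 5% of reads and 5 reads, annotated models with at least 5 reads, the 3 most abundant genes of each list, and ferritin copies with reads. The list of other messages with iron-responsive elements is reported in part, and 1 of its genes and 1 erythroid marker are not reported here. Other sites and models with fewer reads were named after their values were seen. Members and lists were chosen with earlier results of these data known. Transferrin is listed as Trf. Sequences come from GENCODE M21 transcripts. No protein sequences were used here.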

Additional observations from a re-analysis of the deposited data

Results flagged for a closer look

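Reads appeared in a gene outside the 8 members. Gm22133, annotated as a microRNA gene inside the last exon of Ftl1 on the same strand (chr7:45458089-45458197), had 8 reads in replicate 1 (9.87 CPM) and 7 in replicate 2 (11.9 CPM), above the 3 reads that a count of 0 allows. Whether these reads came from Ftl1 was not tested. They are 8 beside 11931 Ftl1 reads and 7 beside 373.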

How the results depend on the processing

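Of 9809 genes tested, 6495 were called, 3493 higher in replicate 1 and 3002 higher in replicate 2. With at least 50 reads over both libraries 4037 were called (2134 and 1903), of 4705 tested. With the length trend removed 3877 were called at a span of 0.3 (1899 and 1978) and 3993 at 0.5 (1852 higher in replicate 1). Members called kept their counts, 2 and 3, under DESeq2 size factors. With total counts 4 were higher in replicate 2, Ireb2 being added, and the share of calls higher in replicate 2 moved from 46.2% to 55.9%. Slc40a1 reversed with the length trend removed, to -0.18 and -0.028, and Hmox1 was called at 2.56 and 2.49. With models of several exons alone, 723 genes in place of 1359 differed in the use of their most used model, and 0 members in place of 1. The causes of these changes were not tested, apart from the fewer genes under the stricter minimum. Leaving out a replicate leaves 1 library and no test, so the values without replicate 1 and without replicate 2 are those of the other library. No paired analysis was possible because both samples belong to 1 group, so no groups share replicate numbers. Depth limits Tfrc and Ireb2, with 4 reads each in replicate 1.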
